A study of Homo sapiens with 4 samples.

Results

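The integrated stress response is a shared answer of cells to shortage of amino acids, misfolded protein, haem deficiency and other strains. Kinases phosphorylate the translation initiation factor eIF2, overall protein synthesis slows, and the mRNA of the transcription factor ATF4 is translated more. ATF4 and its bZIP partners then switch on genes for amino acid supply, feedback inhibitors such as TRIB3 and PPP1R15A, and, when the stress lasts, the pro-apoptotic factor CHOP, which is encoded by DDIT3. Because ATF4 is regulated largely at translation, its mRNA level and its activity are separate measurements.

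The results concern 10 regulators of this response: ATF4, ATF3, ATF5, DDIT3, TRIB3, CEBPG, PPP1R15A, CHAC1, SESN2 and DDIT4. Their members on the array were all probe sets whose platform gene symbol was exactly one of these names, which gave 19 of the 54675 probe sets and 10 of the 19775 genes that have a probe set of their own; 4 of the genes had 1 probe set and 6 had several. RNA came from U937, an established human line derived from a lymphoma of monocytic character. One group was treated with shikonin, a naphthoquinone from gromwell roots, at 100 nM for 3 h, and the control group received the solvent dimethyl sulfoxide (DMSO), for which no time was stated. Each group had 2 samples, each on its own array. The labels number the samples without saying that they came from separate cultures. A p-value here sets the group difference against the scatter of these arrays alone, pooled partly over probe sets of like signal. That scatter may be technical. In a bulk measurement of this kind, less RNA per cell and fewer cells with that RNA cannot be told apart.

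Median signal ran from 60.5 to 63.7 over the 4 arrays, and log2 values correlated at 0.980 within each group and at 0.972 to 0.974 between groups. Of 8 leukocyte markers with a probe set, 7 (PTPRC, SPI1, LYZ, MPO, CD4, ITGAL and CSF3R) lay above the 40th percentile of signal on all arrays. MPO did so narrowly, at percentile 41.7 on shikonin 2, and FCGR1A lay below the 40th on all arrays. The summed signal of the 8 markers was 17406 and 17914 in DMSO and 17144 and 17609 after shikonin. PTPRC, the common leukocyte antigen, fell by 0.35 on the log2 scale (limma adjusted p = 0.0223). Markers of T, B, erythroid, epithelial, fibroblast and liver cells summed to 755 to 810 over 11 genes. Of these, 3 (CD79A, HBB and COL1A1) lay above the 40th percentile throughout, and CD79A and COL1A1 had more signal than MPO on every array. CD3E, CD8A, MS4A1, EPCAM, KRT19 and ALB were too dim to be tested, and none of the others was called. All 19 probe sets of the regulators were bright enough to be tested.

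After 3 h of shikonin, TRIB3 transcript fell 2.50-fold, DDIT4 1.76-fold and CEBPG 1.38-fold on their brightest probe sets, to 56.2% of the DMSO signal for DDIT4 and 72.1% for CEBPG. ATF3 and PPP1R15A were called lower on their brightest probe set but not on the others. The mRNAs of ATF4, ATF5, DDIT3, CHAC1 and SESN2 did not pass the test. In all, 7 of 19 probe sets (36.8%), from 5 of the 10 genes, were called lower at a limma adjusted p under 0.05, where 5.28% of all 32768 tested probe sets were. These 10 genes were chosen with earlier results of these data known, so such shares, here and below, describe these genes only. No member was called higher, against 3.92% of all tested probe sets; 1 member was higher at an unadjusted p under 0.05, and 8 were lower.

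By its brightest probe set, each of 5 genes among 10 was called lower and none higher, against 6.65% and 5.05% of all 13554 genes tested. Of the 6777 brighter genes among these, 10.2% were called lower and 8.72% higher; 6 of the 10 regulators lay among them, and 4 of the 6 were called lower. The median log2 change over the 10 genes was -0.29, with a range of -1.32 to 0.52, beside 0.00 over all genes. The arrays of both groups did not overlap for 11 of the probe sets in the downward (57.9%) and 3 in the upward direction (15.8%), beside 26.1% and 27.0% of all tested probe sets. These calls rest on a variance prior that follows the signal: with a single prior, limma called no probe set of the array, and the smallest adjusted p of a member was 0.15, although 10 members had an unadjusted p under 0.05. With 2 arrays against 2, an exact two-sided permutation test of a single value cannot go below 0.333.

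**Figure D1:**
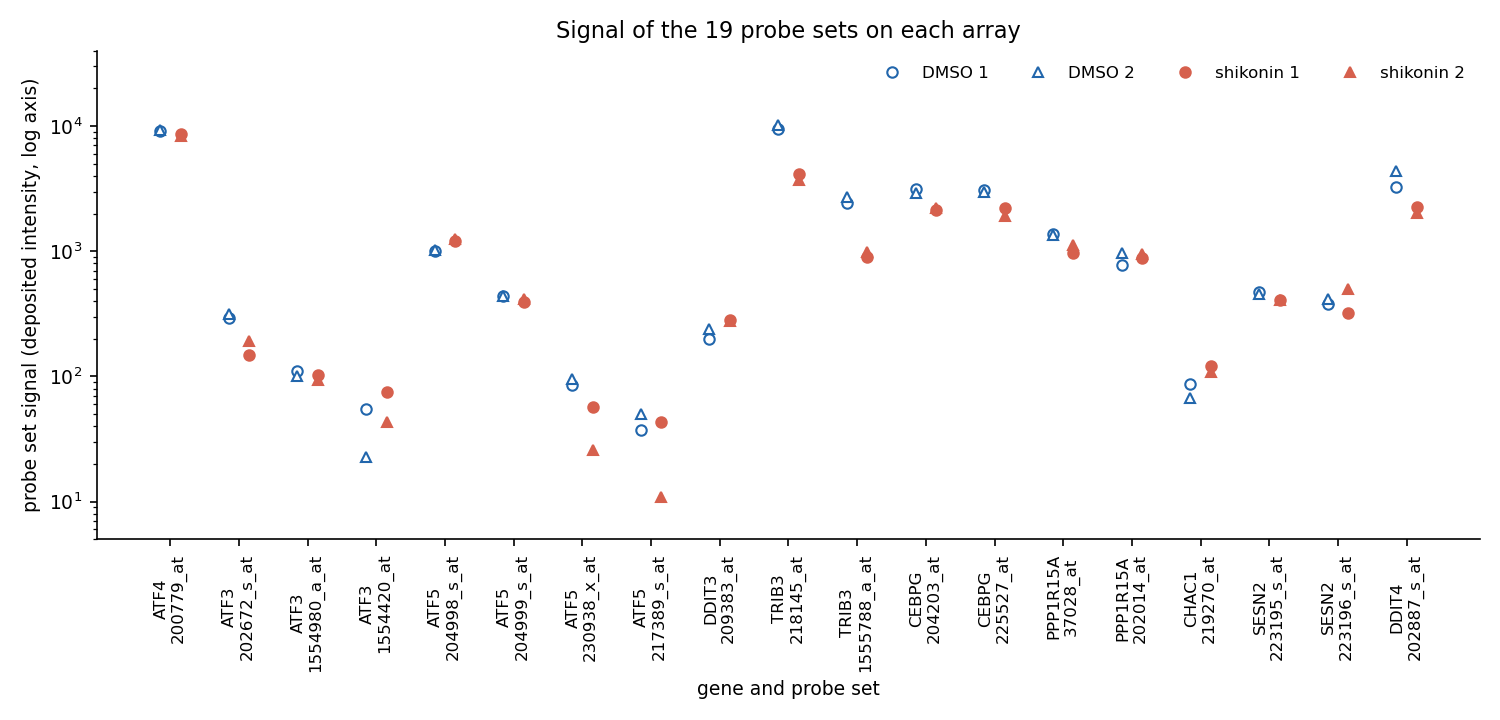
Deposited signal (log axis) of each of the 19 probe sets on the 2 DMSO arrays (open blue) and the 2 shikonin arrays (filled red), with circles for sample 1 and triangles for sample 2. The TRIB3 signals separate widest: 9443 and 10129 in DMSO against 4118 and 3704 after shikonin on its brighter probe set.

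The stretches of genome in front of these genes are shown because 3 of the genes fell on every probe set while others with a known ATF4 input did not pass. RefSeq promoter sequences of GRCh38.p14 were available for all 10 genes as 18 windows, of which the 250 bases before the annotated start are used. They were searched on both strands for TGATGNAAN, the composite site bound by C/EBP and ATF proteins, for TGACGTCA, the cyclic AMP response element (CRE), for the endoplasmic reticulum stress element (ERSE), and for TGACNNNGC, the core of the antioxidant response element. Matches are in capitals below, and no 2 of them overlapped.
TRIB3, chr20:381045-381294, plus strand: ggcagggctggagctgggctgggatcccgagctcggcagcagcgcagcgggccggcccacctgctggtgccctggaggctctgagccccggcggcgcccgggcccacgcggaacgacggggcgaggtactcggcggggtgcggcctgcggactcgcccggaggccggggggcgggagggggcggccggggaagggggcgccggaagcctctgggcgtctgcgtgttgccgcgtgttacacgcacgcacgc
DDIT4, chr10:72273674-72273923, plus strand: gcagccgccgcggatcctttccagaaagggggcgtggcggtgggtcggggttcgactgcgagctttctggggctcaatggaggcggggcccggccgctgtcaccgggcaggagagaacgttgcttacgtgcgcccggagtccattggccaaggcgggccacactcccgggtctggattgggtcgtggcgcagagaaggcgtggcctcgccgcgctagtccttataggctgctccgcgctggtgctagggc
CHAC1, chr15:40953221-40953470, plus strand: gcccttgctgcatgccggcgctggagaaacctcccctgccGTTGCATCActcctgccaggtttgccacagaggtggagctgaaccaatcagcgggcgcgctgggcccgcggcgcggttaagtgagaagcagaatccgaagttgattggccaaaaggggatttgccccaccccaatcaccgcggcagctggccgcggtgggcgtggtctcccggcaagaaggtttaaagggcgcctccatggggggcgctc
PPP1R15A, chr19:48872171-48872420, plus strand: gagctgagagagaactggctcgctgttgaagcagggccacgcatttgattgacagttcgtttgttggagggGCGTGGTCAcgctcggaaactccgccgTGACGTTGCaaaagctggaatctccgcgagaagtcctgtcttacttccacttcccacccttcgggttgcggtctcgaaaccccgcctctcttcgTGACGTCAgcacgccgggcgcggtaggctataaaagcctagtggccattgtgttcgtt
ATF3, chr1:212565157-212565406, plus strand: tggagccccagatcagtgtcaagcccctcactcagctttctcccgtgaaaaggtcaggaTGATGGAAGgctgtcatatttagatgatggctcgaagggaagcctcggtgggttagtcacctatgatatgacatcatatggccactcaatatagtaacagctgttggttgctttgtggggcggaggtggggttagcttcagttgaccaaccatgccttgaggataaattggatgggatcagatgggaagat
CEBPG, site before the downstream start, plus strand: gcggcgtcTGATGCAACctgccggc

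The composite site occurred in front of CHAC1 (positions -210 to -202, where -1 is the base before the start, on the opposite strand), of the upstream start of ATF3 (-191 to -183) and of the downstream start of CEBPG (-42 to -34, within chr19:33373863-33374112). Among all 35116 RefSeq windows, 3.13% held it. PPP1R15A alone among the 10 genes held a CRE (-58 to -51; 1.65% of all windows) and the antioxidant core (-152 to -144 and, on the opposite strand, -179 to -171; 10.9% of all windows). The ERSE, present in 0.074% of windows, had no match in the 18. No match was found in the windows of TRIB3, DDIT4, DDIT3, SESN2, ATF5 and ATF4, which says only that these letters are not in the 250 bases searched. Matches thus stood before genes called lower on every probe set (CEBPG), on 1 of several (ATF3, PPP1R15A) and on none (CHAC1).

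ATF4, the central transcription factor, is read by a single probe set (200779_at). Its signal was 9139.8 and 9266 in DMSO and 8702 and 8339 after shikonin, so both shikonin arrays lay lower, by a small margin. The log2 change was -0.11 (SE 0.053, 95% interval -0.23 to 0.01) and did not pass (limma adjusted p = 0.235). After quantile normalization between arrays, which moved this bright probe set to -0.20, it did (limma adjusted p = 0.0325).

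The bZIP partners of ATF4 differed among themselves. CEBPG, a C/EBP protein without a transactivation domain that dimerizes with ATF4, gave 3150.0 and 2899 on the DMSO arrays against 2147 and 2216 on the shikonin arrays with one probe set (204203_at). On the other (225527_at) it had 3076 and 2972 against 2233 and 1917. In both cases each shikonin array lay below each DMSO array. The log2 changes were -0.47 (SE 0.07, adjusted p = 0.00433) and -0.55 (SE 0.083, adjusted p = 0.00455), which is 1.38-fold and 1.46-fold lower. Leaving out any 1 array kept both calls, with log2 changes between -0.65 and -0.41.

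ATF3 is a stress-inducible repressor and activator that also feeds back on ATF4 targets. On its brightest probe set (202672_s_at) the signals were 292 and 316 in DMSO and 148 and 192 after shikonin, without overlap. This was 1.75-fold lower (log2 change -0.81, SE 0.19, limma adjusted p = 0.0281). The call went without DMSO 1, DMSO 2 or shikonin 1 (limma adjusted p = 0.0679, 0.108 and 0.105), although the change stayed between -0.99 and -0.63, and with no filter on dim probe sets (0.0708). A second probe set (1554980_a_at) gave 111 and 101 against 102 and 93.3, which overlap (log2 change -0.11, 95% interval -0.70 to 0.48). The dimmest (1554420_at) gave 55.0 and 22.6 against 74.4 and 43.1 and had a log2 change of 0.54 with an interval of -0.59 to 1.67. The fall of ATF3 therefore stands on 1 of 3 probe sets.

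ATF5, a relative of ATF4 that is likewise controlled at translation, is read by 4 probe sets that pointed in different directions. The brightest (204998_s_at) had a signal of 1001 and 1022 in DMSO and 1215 and 1244 after shikonin. Both shikonin arrays were higher, by a log2 change of 0.28 (SE 0.082), and the test was narrowly missed (limma adjusted p = 0.0672; 0.0452 when the dimmest 60% of probe sets were left out). On the next (204999_s_at), 440.0 and 438 stood against 390.2 and 412, a log2 change of -0.13 with an interval of -0.40 to 0.15. The remaining ones (230938_x_at and 217389_s_at) had signals of 10.8 to 95.8 and log2 changes of -1.03 and -0.68, with standard errors of 0.41 and 0.60; 1 of 4 arrays lay below the 40th percentile for each, and neither passed. The suffixes _s_at and _x_at mark probe sets that may also match other transcripts. The called probe sets of ATF3 (202672_s_at) and DDIT4 (202887_s_at), and both of SESN2, carry _s_at as well.

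DDIT3 encodes CHOP, a C/EBP relative that lacks normal DNA binding on its own and promotes cell death in prolonged stress. Its only probe set (209383_at) read 200.1 and 239 in DMSO and 279.9 and 276 after shikonin, so both shikonin arrays were higher. The log2 change of 0.33 (SE 0.17, 95% interval -0.05 to 0.71) did not pass (limma adjusted p = 0.269), and under the 11 alternatives it lay between 0.21 and 0.46 with an adjusted p of 0.221 to 0.623.

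**Figure D2:**
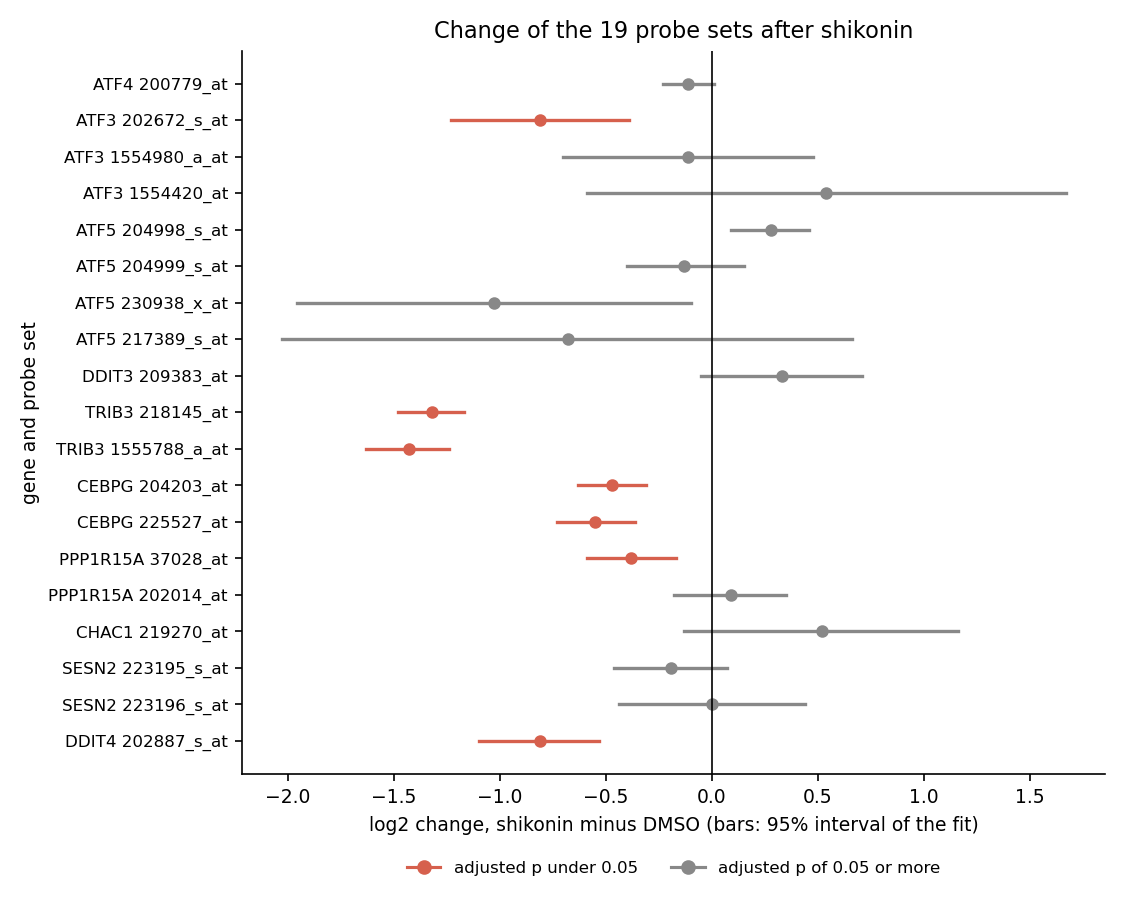
Log2 change (shikonin minus DMSO) of each of the 19 probe sets with its 95% interval from the limma fit, red where the adjusted p was under 0.05. The red points run from -1.43 for TRIB3 to -0.38 for PPP1R15A, and no red point lies above 0.

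TRIB3, a pseudokinase that binds ATF4, CHOP and AKT and is among the most responsive genes downstream of ATF4, had the largest change of the 10 genes by brightest probe set. Its brighter probe set (218145_at) read 9443 and 10129 in DMSO (9786 ± 485, SD, n = 2) and 4118 and 3704 after shikonin (3911 ± 293, SD, n = 2). The other (1555788_a_at) read 2409.7 and 2724 against 907 and 979. On both, the closest arrays of the groups were further apart (1.20 and 1.29 on the log2 scale) than the arrays within a group (at most 0.18). The log2 changes were -1.32 (SE 0.068, limma adjusted p = 1.09e-05) and -1.43 (SE 0.088, limma adjusted p = 3.4e-05), or 2.50-fold and 2.70-fold lower. By p, TRIB3 ranked 18th of 13554 genes, and by size of change 31st of the 901 genes called lower. Without any 1 array its log2 change stayed between -1.52 and -1.25 on both probe sets and the adjusted p at or below 5.46e-05.

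The genes closest to TRIB3 in pattern were found by the distance over the 4 arrays after each gene was centred on its own mean log2 value. Of 13553 other genes, the nearest were ST3GAL1, a sialyltransferase (distance 0.0656), FOSL2, an AP-1 factor (0.0965), NLRP3, the inflammasome sensor, KLF10, a zinc finger repressor, and HHEX, a homeobox factor (0.114). The second TRIB3 probe set lay further away, at 0.222. ST3GAL1 read 1641 and 1858 in DMSO and 734 and 677 after shikonin (2.46-fold lower). The others were 2.39-fold to 2.57-fold lower. With 4 arrays in 2 groups, the distance mainly reads the size of the group difference.

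**Figure D3:**
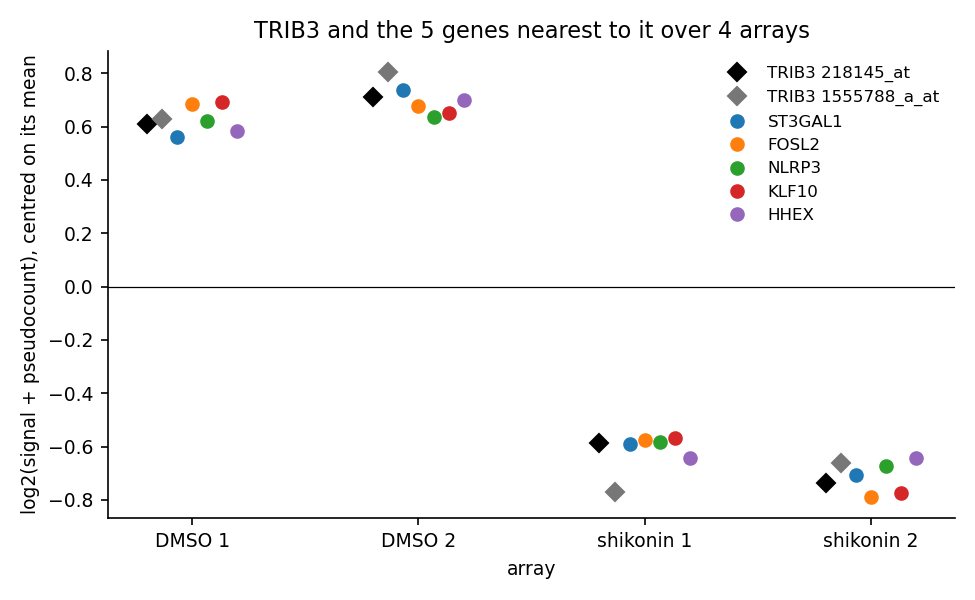
Log2(signal + pseudocount) of TRIB3 (both probe sets, diamonds) and of the 5 genes nearest to its brighter probe set (circles) on each array, each centred on its own mean over the 4 arrays. All lie above 0 in both DMSO samples and below 0 in both shikonin samples.

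Among the other effectors, PPP1R15A (GADD34) recruits protein phosphatase 1 to eIF2 and so ends the response. Its brighter probe set (37028_at) read 1371 and 1340.2 in DMSO and 965 and 1115 after shikonin, 1.30-fold lower (log2 change -0.38, SE 0.093, limma adjusted p = 0.0354). The other (202014_at) read 774 and 967 against 889 and 948, which overlap (log2 change 0.09, 95% interval -0.18 to 0.35). The log2 ratio of the first to the second probe set was 0.82 and 0.47 in DMSO and 0.12 and 0.23 after shikonin, so the probe sets moved unequally by 0.47; this difference was not tested. The call of the first probe set went without DMSO 1, DMSO 2 or shikonin 1 (limma adjusted p = 0.108, 0.0827 and 0.164), with no filter on dim probe sets (0.0715) and after quantile normalization (0.0537).

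CHAC1, an enzyme that cleaves glutathione, is usually a sensitive marker of ATF4 activity. Its probe set (219270_at) read 87.6 and 67.1 in DMSO and 120.2 and 108 after shikonin. Both shikonin arrays were higher, but the log2 change of 0.52 had an SE of 0.28 and an interval of -0.13 to 1.16 and did not pass (limma adjusted p = 0.311).

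SESN2 and DDIT4 both restrain mTORC1, the kinase complex that couples nutrients to growth: SESN2 as a leucine sensor, DDIT4 (REDD1) through the TSC complex. DDIT4 (202887_s_at) read 3242 and 4380.3 in DMSO and 2269.6 and 2014 after shikonin. Both shikonin arrays were lower, although the DMSO arrays differed from each other by 0.43 on the log2 scale. It was 1.76-fold lower (log2 change -0.81, SE 0.13, limma adjusted p = 0.00484), with log2 changes of -1.03 to -0.60 when 1 array was left out and the call kept each time. SESN2 read 474 and 458 against 405 and 406 on one probe set (223195_s_at; log2 change -0.19, 95% interval -0.46 to 0.07). On the other (223196_s_at), 381 and 419 stood against 319 and 498. There the shikonin arrays lay on both sides of the DMSO arrays, and the interval ran from -0.44 to 0.44.

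**Figure D4:**
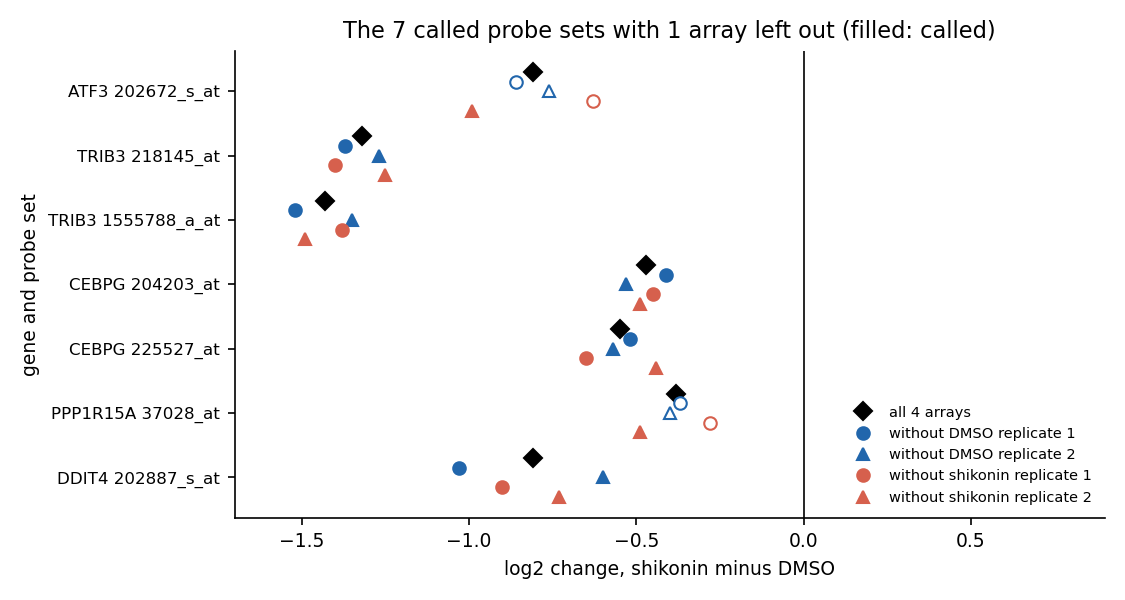
Log2 change (shikonin minus DMSO) of the 7 probe sets called lower with all 4 arrays (diamonds) and with 1 array left out (circles and triangles), filled where the adjusted p was under 0.05. TRIB3, CEBPG and DDIT4 kept the call in all 4 fits, and ATF3 and PPP1R15A kept it only without shikonin 2.

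Around these regulators, genes that set eIF2 phosphorylation were mostly not called. Of 20 tested eIF2 kinases, eIF2 and eIF2B subunits, phosphatase subunits and linked genes, 3 fell and 2 rose, with a median log2 change of 0.06. PPP1R15B, the constitutive counterpart of PPP1R15A, fell from 4700.2 and 5091 to 3806 and 3307 (log2 change -0.46, limma adjusted p = 0.00801). EIF2AK1, the haem-regulated eIF2 kinase, was 1.26-fold lower, and OMA1, a mitochondrial protease that starts a stress signal to that kinase, also 1.26-fold lower. EIF2S1, the phosphorylated subunit of eIF2, rose by 0.24 and GCN1, an activator of the kinase GCN2, by 0.31 (GCN1 was named after its value was seen). Of these, PPP1R15B kept its call without any 1 array; EIF2AK1 lost it without shikonin 1, OMA1 without DMSO 1, shikonin 1 or shikonin 2, and EIF2S1 and GCN1 without any of the 4, which left no gene of this list called higher. With no filter on dim probe sets OMA1 (limma adjusted p = 0.0661), EIF2S1 (0.0812) and GCN1 (0.0564) also lost it, and after quantile normalization EIF2S1 moved to 0.16 (0.0656). The other probe sets of EIF2AK1 (-0.13), EIF2S1 (0.11 to 0.27) and GCN1 (0.26) were not called.

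Targets of ATF4 for amino acid supply split. Of 17 tested, 5 were called lower and 3 higher, with a median of -0.15. The risers were all transporter subunits: SLC7A11, the cystine importer, went from 1422 and 1382 to 3763 and 3331 (2.51-fold higher, limma adjusted p = 2.91e-05, both other probe sets called too), SLC3A2, its heavy chain, was 1.59-fold higher and SLC7A5, a leucine transporter that pairs with the same chain, 1.41-fold higher. SLC38A2, a glutamine and alanine transporter, was 1.41-fold lower on this probe set, and both others were called. The other falls, named after their values were seen, were in enzymes: CTH (log2 change -0.47) and CBS (-0.44) of transsulfuration, MTHFD2 (-0.31) of mitochondrial folate and PSAT1 (-0.22) of serine synthesis. Further probe sets of CBS (2, at -0.77 to -0.31) and MTHFD2 (-0.4) were not called, and those of CTH (-0.37) and PSAT1 (-0.28) were. CBS lost the call without DMSO 2 or shikonin 1 (log2 change -0.34 and -0.42). PSAT1 lost it without DMSO 1, shikonin 1 or shikonin 2 (-0.18, -0.22 and -0.22). PSAT1 also lost it with no filter (limma adjusted p = 0.0959). Among 11 cytosolic aminoacyl-tRNA synthetases, CARS1 fell by 0.30 and lost the call without DMSO 2 or shikonin 1, and limma called none higher (0 at an unadjusted p under 0.05 as well). The 3 further CARS1 probe sets changed by -0.51 to 0.17 and 2 of them were called. The number of synthetases called lower was 4 after quantile normalization, 3 with the dimmest 60% left out, 2 without DMSO 1 and 0 when a gene was the mean of its probe sets (5 at an unadjusted p under 0.05).

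Of 17 other targets of ATF4 and CHOP, 9 were called lower and 3 higher, and the median of -0.53 was the lowest of the 8 lists. CEBPB, a C/EBP activator that dimerizes with ATF4 and CHOP, read 7809 and 8042 in DMSO and 4541 and 4139 after shikonin (log2 change -0.87, limma adjusted p = 9.53e-05). VEGFA, the angiogenic growth factor, was 1.57-fold lower and BCL2L11 (BIM), which promotes apoptosis, 1.46-fold lower. Its 6 further probe sets changed by -0.84 to 0.14 and 1 of them was called. SQSTM1, the autophagy receptor p62, rose from 4036 and 3473 to 7745 and 7456 (2.03-fold); its 4 further probe sets changed by -0.71 to 2.34 and 1 of them was called. The other risers, named after their values were seen, were HERPUD1, an endoplasmic reticulum membrane protein, and TXNIP, which binds thioredoxin. HERPUD1 had a log2 change of 0.33, and of 1.39 on a second probe set that did not pass. TXNIP had 0.41, and its 2 further probe sets, at 0.11 and 0.16, did not pass. HERPUD1 lost the call without DMSO 1 (0.29) or shikonin 1 (0.32). TXNIP lost it without DMSO 1 (0.41), DMSO 2 (0.41) or shikonin 1 (0.31), and with no filter (limma adjusted p = 0.0513). With a gene as the mean of its probe sets, 1 gene of the list was called higher. This list, like the regulators and the other lists, was drawn up with earlier results of these arrays known. Each count therefore describes the listed genes only.

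Of 16 bZIP relatives tested, DDIT3 among them, 3 were called lower and 1 higher. The lists overlap, so their counts are not separate. CEBPB and JDP2 were also counted among the other targets, and PPP1R15B among both the eIF2 genes and the paralogs. HERPUD1 was counted among both the other targets and the unfolded protein response. The latter list also shares EIF2AK3 with the eIF2 genes and ATF6 with the bZIP relatives. Besides CEBPB, NFE2L2, which encodes the oxidative stress factor NRF2, fell from 6475 and 6142 to 4335 and 4002 (log2 change -0.60, limma adjusted p = 7.53e-04), and JDP2, a repressor that binds AP-1 sites, was 1.44-fold lower on 1 of its 2 probe sets; the other, at -0.01, was not called. BATF, an AP-1 repressor of immune cells, rose from 1636 and 1647 to 2353 on both shikonin arrays (1.43-fold). Among 6 paralogs of the remaining members, PPP1R15B was called lower and CHAC2, a constitutive relative of CHAC1, higher (2718 and 2660.2 against 3468 and 3477, 1.29-fold).

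Of 21 mTORC1 components and regulators, 3 were called lower and 1 higher, with a median of 0.05. CASTOR2 rose from 93.1 and 106 to 269 and 308 (2.73-fold, limma adjusted p = 0.00301). Its relative CASTOR1, an arginine sensor upstream of mTORC1, went from 198 and 225 to 98.6 and 103 (2.00-fold lower), and WDR59 and AKT1S1 were 1.53-fold and 1.36-fold lower. Further probe sets of WDR59 (3, at -0.21 to -0.18), CASTOR1 (-0.93) and AKT1S1 (0.26) were not called. CASTOR1 and AKT1S1 lost their calls without DMSO 1, DMSO 2 or shikonin 1. In these fits the log2 change of CASTOR1 was -1.09, -0.91 and -0.97 and that of AKT1S1 -0.47, -0.41 and -0.31. Both calls also went with no filter (limma adjusted p = 0.0664 and 0.0673). With a gene as the mean of its probe sets, limma called none of this list lower (3 at an unadjusted p under 0.05). Of 17 genes of the unfolded protein response, 8 were called higher and 1 lower (median 0.27). HSPA5, the reticulum chaperone BiP, rose from 13034 and 12662 to 17669 and 17264, DNAJB9 was 1.65-fold and SEC61B 1.31-fold higher, and XBP1 fell by 0.38; second probe sets of SEC61B (-0.42) and XBP1 (0.38) pointed the other way and did not pass, and with the mean of probe sets limma called no gene of this list lower (1 at an unadjusted p under 0.05). Shares of these lists called higher ran from 0% to 47.1% and lower from 5.88% to 52.9%, beside 5.05% and 6.65% of all genes tested.

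**Figure D5:**
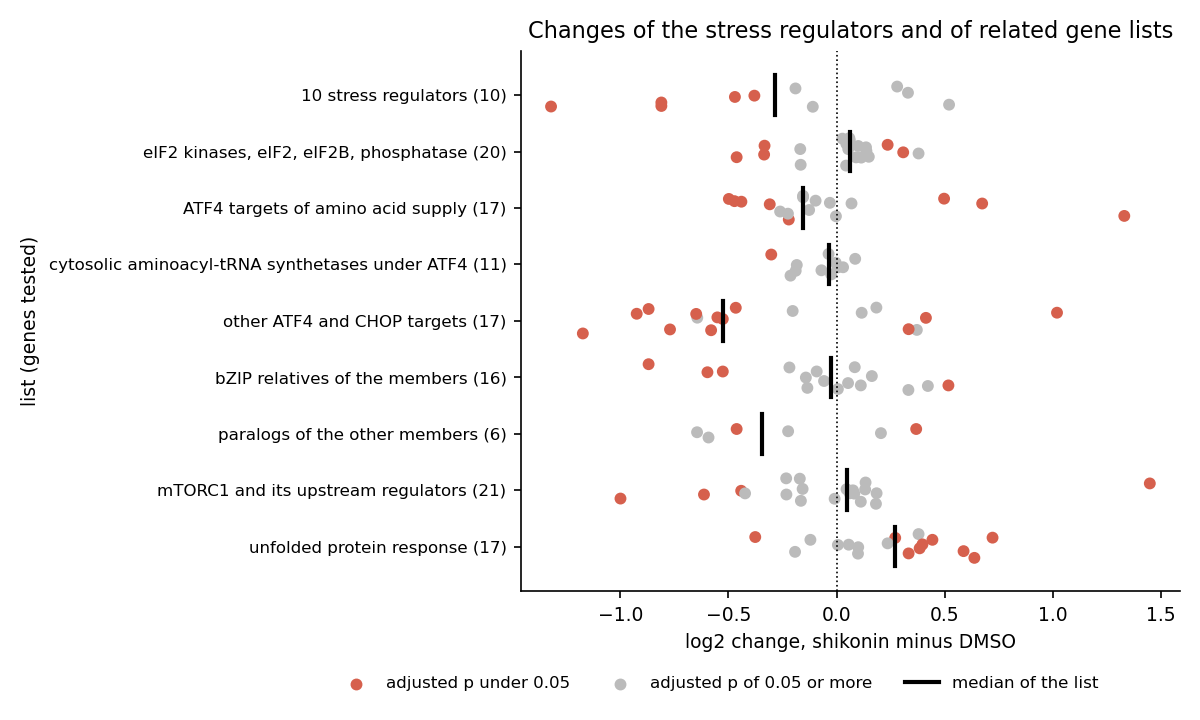
Log2 change (shikonin minus DMSO) of the brightest probe set of each gene for the 10 stress regulators and the 8 related lists, red where the adjusted p was under 0.05, with a black bar at each list's median. The unfolded protein response has its median at 0.27, and the 10 stress regulators and the other ATF4 and CHOP targets have theirs at -0.29 and -0.53.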

How the data were processed

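Each deposited value is a probe set's intensity, linear in scale, from Affymetrix Human Genome U133 Plus arrays, labelled with biotin by one-cycle amplification per the labels' protocols. No source used here names the software that summarised the probes. The authors' deposited intensity values had a mean of 500.1 on each array after the lowest and highest 2% were removed, so a change is measured against the remaining probe sets. Gene names came from the platform annotation; 41043 of 41097 probe sets with 1 symbol matched RefSeq by gene identifier.

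Values were converted to log2(signal + 9.94), the pseudocount being the 20th percentile, which understates changes of dim probe sets. Controls were dropped, then the dimmest 40% by mean log2 value, leaving 32768. The groups were compared with limma 3.58.1 in R 4.3.3 (lmFit, eBayes with trend; 2 residual and 7.1 prior degrees of freedom), two-sided, p adjusted by Benjamini-Hochberg across the 32768, and called at an adjusted p under 0.05. Intervals are 95% intervals of single probe sets, not adjusted. Fold changes are on the log2(signal + pseudocount) scale. The procedure was tested on simulated data. Arrays limit the precision by their number.

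Outside the members, a gene was its brightest tested probe set. Named were up to 4 called genes of each list with the smallest p, and the 5 genes nearest to TRIB3; genes outside this rule are marked in the text. Alternatives were other pseudocounts, filters, quantile normalization, a single variance prior, a replicate block, 1 array left out and, for the lists, the mean of a gene's probe sets. The members and lists were chosen with earlier results of these data known.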

Additional observations from a re-analysis of the deposited data

How the results depend on the processing

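Of 204 log2 changes of member probe sets under an alternative, 180 kept their direction and side of the threshold, 16 lost the call, 3 gained it and 5 changed sign. All 16 losses fell on the 7 probe sets called at first, as the other 12 had no call to lose. Of 192 counts of called genes in the related lists, 152 stayed within 1.5 times and 40 moved. With a gene as the mean of its probe sets, the genes called lower went from 3 to 0 for mTORC1, from 1 to 0 for the unfolded protein response and from 1 to 0 for the synthetases, and those called higher among other targets from 3 to 1. The sign changed only for changes near 0: SESN2 223196_s_at moved to 0.00037 with a pseudocount at the 40th percentile, to 0.05 after quantile normalization and to between -0.31 and 0.31 with 1 array left out, and PPP1R15A 202014_at ran from -0.07 to 0.24 with 1 array left out. Over all probe sets, those called higher and lower numbered 1286 and 1729. They numbered 638 and 1111 with no filter, when more dim probe sets were tested, and 594 to 932 and 1087 to 1331 with 1 array left out, when the lone array of a group is assumed to vary like the other group. With a single variance prior limma called 0 in each direction, 0 members included, although 5970 probe sets had an unadjusted p under 0.05. One member, ATF5 204998_s_at, was called higher with the dimmest 60% left out (count 1). The labels did not say whether arrays with the same replicate number were paired. Deviations of same-numbered arrays correlated at 0.0216, which cannot decide it. With the number as a replicate block, 2327 probe sets were called higher and 2606 lower, and among members 1 higher (ATF5 204998_s_at, limma adjusted p = 0.0458) and 7 lower. TRIB3, CEBPG and DDIT4 lay far above the dimmest signals, and the number of arrays limits their precision; 1 probe set of ATF3 and 2 of ATF5 each had 1 array under the 40th percentile of signal.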
